A study of Mus musculus with 18 samples.

Results

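8 genes of the segmentation clock and its Notch signalling were followed through mouse embryos collected at E8.5 that lack 1 of the DNA methyltransferases. They were chosen by symbol from the 31053 mouse genes in the deposited features lists: the Notch ligands *Dll1* and *Dll3*, the glycosyltransferase gene *Lfng*, the clock repressor *Hes7*, the presomitic transcription factors *Tbx6* and *Msgn1*, and the boundary genes *Mesp2* and *Ripply2*. The labels give 18 droplet-based single-cell RNA-seq libraries of single embryos from heterozygous matings on the 129S4/SvJae background, 7 of WT embryos and 3, 4 and 4 of embryos without *Dnmt1*, *Dnmt3a* and *Dnmt3b*, named KO after the missing gene. The libraries *Dnmt3b* KO 1 and *Dnmt3b* KO 2 shared most of their cell barcodes, may be 1 embryo and were treated as 1 sample. The KO embryos were homozygous for a constitutive null allele of the named gene, so that every cell of the embryo and of its extraembryonic tissues carried it, and the WT embryos had been genotyped as wild type. *Dnmt1* encodes the maintenance DNA methyltransferase, and *Dnmt3a* and *Dnmt3b* encode the de novo enzymes.

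In the vertebrate tail bud, neuromesodermal progenitors give rise to presomitic mesoderm, which is cut into somites at a moving front at its anterior end. Before a cell reaches that front, Notch signalling and its target repressors switch on and off in cycles, and Hes7 represses its own gene and *Lfng* as part of this oscillator. At the front, Tbx6 and Notch activity turn on *Mesp2*, whose product sets the somite boundary and induces *Ripply2*, and Ripply2 in turn limits Tbx6. *Msgn1* acts earlier, where progenitors leave the tail bud and take on a presomitic identity.

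All 8 genes are protein-coding and were counted on GRCm38. *Dll1* (ENSMUSG00000014773) lies on the minus strand of chromosome 17 from 15367354 to 15376872, and *Dll3* (ENSMUSG00000003436) on the minus strand of chromosome 7 from 28293553 to 28302238. *Lfng* (ENSMUSG00000029570) lies on the plus strand of chromosome 5 from 140607320 to 140615545, and *Hes7* (ENSMUSG00000023781) on the plus strand of chromosome 11 from 69120404 to 69124055. *Tbx6* (ENSMUSG00000030699) occupies chromosome 7 from 126781483 to 126785560 on the plus strand, and *Msgn1* (ENSMUSG00000047002) chromosome 12 from 11208360 to 11208972 on the minus strand. *Mesp2* (ENSMUSG00000030543) is on the plus strand of chromosome 7 from 79810727 to 79813439, and *Ripply2* (ENSMUSG00000047897) on the plus strand of chromosome 9 from 87015537 to 87019917. *Hes7* overlaps the opposite-strand gene *9130213A22Rik* and *Dll1* overlaps *A930024N18Rik*. The other 6 genes overlap no annotated gene.

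DNA methylation falls on CpG dinucleotides, so the CpGs of the start regions are shown for *Hes7*, *Lfng* and *Msgn1*, the pair with the largest and the 1 with the smallest fold change in *Dnmt1* KO embryos. Each sequence covers 250 bases before and 50 bases after a RefSeq start on GRCm38.p6, 5′ to 3′ on the strand of the gene, with every CpG in capitals.
Hes7 promoter, chr11:69120203-69120502, + strand: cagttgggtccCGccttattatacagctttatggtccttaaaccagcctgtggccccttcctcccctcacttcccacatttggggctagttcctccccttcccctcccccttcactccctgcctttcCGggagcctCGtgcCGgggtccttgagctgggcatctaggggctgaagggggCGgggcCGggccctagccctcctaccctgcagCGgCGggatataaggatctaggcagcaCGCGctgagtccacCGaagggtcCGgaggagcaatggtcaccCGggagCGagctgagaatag
Lfng promoter, chr5:140607091-140607390, + strand: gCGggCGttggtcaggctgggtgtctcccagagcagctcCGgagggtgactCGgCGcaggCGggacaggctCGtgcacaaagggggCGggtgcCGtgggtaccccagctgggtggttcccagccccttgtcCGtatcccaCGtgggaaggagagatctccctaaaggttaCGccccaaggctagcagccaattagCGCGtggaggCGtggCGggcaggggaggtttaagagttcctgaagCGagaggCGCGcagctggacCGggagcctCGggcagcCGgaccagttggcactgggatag
Msgn1 promoter, chr12:11208899-11209198, - strand: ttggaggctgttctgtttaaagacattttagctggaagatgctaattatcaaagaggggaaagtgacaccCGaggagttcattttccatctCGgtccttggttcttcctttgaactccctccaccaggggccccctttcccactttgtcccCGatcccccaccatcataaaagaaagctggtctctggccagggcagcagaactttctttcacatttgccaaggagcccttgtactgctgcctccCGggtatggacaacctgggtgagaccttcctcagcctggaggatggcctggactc
The *Hes7* window holds 14 CpGs, that of *Lfng* 22 and that of *Msgn1* 4. Among the other members there are 7 CpGs at *Tbx6*, 10 at *Mesp2*, 11 at *Dll3*, 32 at *Ripply2*, and 24 and 15 at the 2 starts listed for *Dll1*. The median over all 32851 promoters of the table is 7, with quartiles of 3 and 20, so the members span from a CpG-poor to a CpG-dense window (31.4th percentile for *Msgn1*, 90.5th for *Ripply2*). The letters TGGGAA, the core read by the Notch effector RBPJ, had 1 match in the *Hes7* window, 2 in that of *Lfng* and 1 in that of *Msgn1* when both strands are searched, and 25.6% of all promoters hold them. The T-box letters AGGTGT had 1 match, at *Mesp2*, and 13.7% of all promoters hold them. The E-box letters CANNTG read the same on both strands, are absent from the *Tbx6* window only, and occur in 72.3% of promoters. A match of letters is a description of the window, not a bound site, and methylation was not measured in these libraries.

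A total of 109967 cells passed the filters, 1366 to 12716 per library, with 36606912 to 233594354 unique molecular identifiers (UMIs, 1 per captured transcript) in the kept cells of a library. *Dnmt3b* KO 1 and *Dnmt3b* KO 2 shared 12249 cell barcodes, 86.5% and 79.3% of their barcodes, where no other pair of libraries shared more than 133, so their counts were summed as 1 sample and the *Dnmt3b* KO group has n = 3. Of the kept barcodes 7858 were in both libraries, and 95.6% of these fell in the same class. The total of cells and the cell counts of the summed sample may therefore include the same cells more than once. Levels are given as CPM, the UMIs of a gene scaled to a common total of UMIs per sample. As a check of the labels, *Dnmt1* was at 14.9 to 15.7 CPM in *Dnmt1* KO embryos and at 83.2 to 116 CPM in WT embryos, and *Dnmt3a* was at 7.39 to 11.8 CPM in *Dnmt3a* KO and 23.1 to 34.9 CPM in WT embryos. *Dnmt3b* was at 57.4 to 68.3 CPM in *Dnmt3b* KO and 35.3 to 87.2 CPM in WT embryos. Whether its 3′ tags lie outside the deleted part was not examined, and the *Dnmt3b* KO labels could not be checked this way. The *Dnmt3a* gene itself was at 15.1 CPM in *Dnmt3b* KO 11 and only 7.56 CPM in *Dnmt3b* KO 12, inside the *Dnmt3a* KO range, against 32 CPM in *Dnmt3b* KO 1 and 2 together, and the fold changes, shares and pathway calls of *Dnmt3b* KO are therefore also given without these 2 libraries, which leaves n = 1. By Y-linked counts 1 of the 7 WT embryos was male. The 3 *Dnmt1* KO and 4 *Dnmt3a* KO embryos were all male, and among the 4 libraries labelled *Dnmt3b* KO 3 were.

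In WT embryos every member but *Lfng* was expressed mainly in 3 classes of paraxial cells, which together made up 11.4% ± 3.27 of cells (SD, n = 7): neuromesodermal progenitor (NMP)-like, presomitic mesoderm-like and somitic mesoderm-like cells. Cells were clustered without the 8 genes and the other Notch pathway and segmentation genes, and the classes were named from other markers. The presomitic mesoderm-like class held 956 WT cells, the somitic 1312 and the NMP-like 1398. Levels are compared for each gene across classes and samples, and not between genes, since 3′ UMI counts of different genes are not on a common scale.

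*Tbx6* and *Msgn1* were highest in the presomitic mesoderm-like class. *Tbx6*, a T-box factor required for paraxial mesoderm, was at 103 ± 30.1 CPM (SD, n = 7) there, at 14.4 ± 2.72 CPM in NMP-like and at 16.9 ± 5.93 CPM in somitic mesoderm-like cells. The lowest presomitic value, 56.6 CPM, lay above the highest value of either other class, 24.1 CPM, while the NMP-like and somitic values overlapped. *Msgn1*, a bHLH factor of cells entering the presomitic mesoderm, was at 9.64 ± 3.94 CPM in the presomitic class and at 0.522 ± 0.296 and 0.588 ± 0.485 CPM in the NMP-like and somitic classes, again with no overlap between the presomitic values and the rest. The ligands followed *Tbx6*: *Dll1*, which activates Notch on neighbouring cells, was at 119 ± 33 CPM in presomitic, 38.1 ± 9.62 CPM in somitic and 18.3 ± 3.57 CPM in NMP-like cells. The divergent ligand *Dll3*, which acts inside the cell that makes it, was at 142 ± 54.6, 48.8 ± 14.3 and 42.5 ± 7.11 CPM in the same order, and its somitic and NMP-like values overlapped.

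The oscillating genes were spread more widely. *Hes7* was at 159 ± 59.3 CPM in presomitic and at 105 ± 26.8 CPM in NMP-like cells, and these values overlapped (82.7 to 248 CPM and 67.2 to 140 CPM), whereas somitic cells had 28.9 ± 11.5 CPM. *Lfng*, whose product adds sugars to the Notch receptor, was at 22.2 ± 6.28 CPM in presomitic, 10.1 ± 3.55 CPM in somitic and 7.03 ± 1.48 CPM in NMP-like cells. Outside the paraxial classes *Lfng* was at 15.9 ± 3.91 CPM in hindbrain and spinal cord-like and at 12.9 CPM in forebrain and midbrain-like cells, within or near its presomitic range of 14.9 to 32.2 CPM. *Mesp2* and *Ripply2* were instead highest in the somitic mesoderm-like class, at 9.50 ± 7.97 and 15.4 ± 12.7 CPM, against 1.29 ± 0.870 and 1.84 ± 2.31 CPM in presomitic cells. Both varied widely between embryos, *Mesp2* from 1.61 to 23.8 CPM and *Ripply2* from 4.38 to 35.5 CPM in the somitic class.

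**Figure D1:**
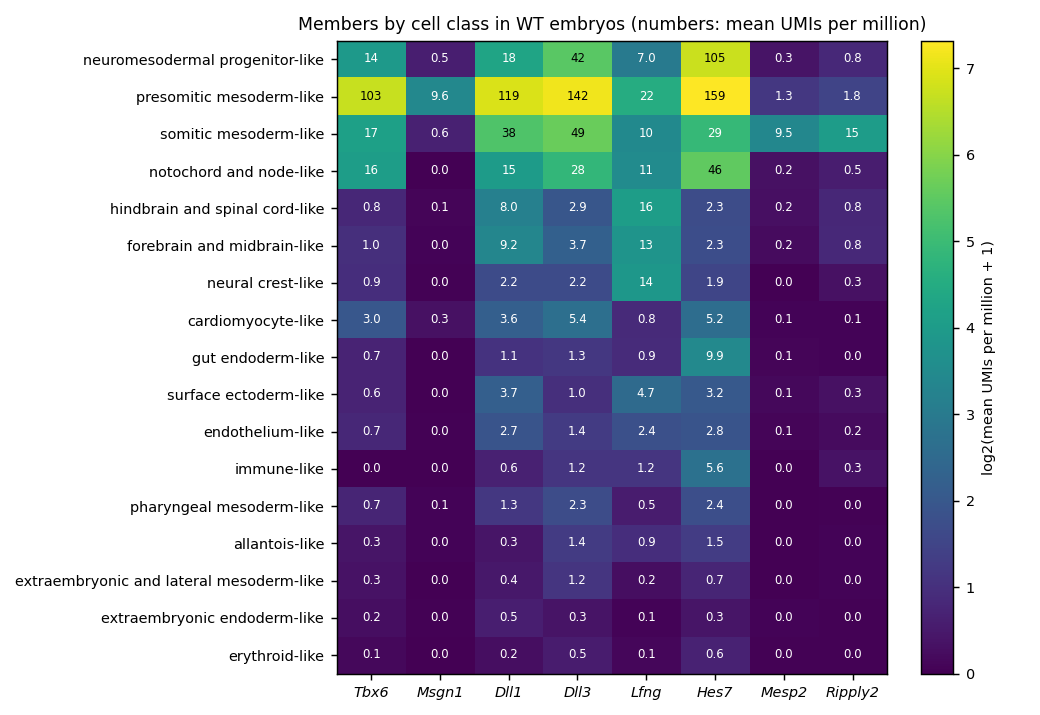
Heat map of the 8 genes (columns) by cell class (rows) in WT embryos: colour gives log2(mean CPM + 1) and the number in each cell the mean CPM over the WT embryos with enough cells of the class. *Tbx6*, *Msgn1*, *Dll1*, *Dll3* and *Hes7* are highest in presomitic mesoderm-like cells, *Mesp2* and *Ripply2* in somitic mesoderm-like cells, and *Lfng* is spread over paraxial and neural classes.

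The 3 paraxial classes held between 73.3% (*Dll1*) and 84.2% (*Mesp2*) of the UMIs of every member but *Lfng* in WT embryos, while holding 14.1% of all UMIs. Presomitic mesoderm-like cells alone held 58.3% of *Tbx6*, 69.6% of *Msgn1*, 44.1% of *Dll1* and 42.7% of *Dll3* UMIs. For *Hes7* the presomitic share was 38.8% and the NMP-like share 30.3%, and for *Mesp2* and *Ripply2* the somitic share was 68.6% and 65.7%. Of the *Lfng* UMIs 33.6% were in paraxial cells, 27.7% in hindbrain and spinal cord-like and 15.3% in forebrain and midbrain-like cells.

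**Figure D2:**
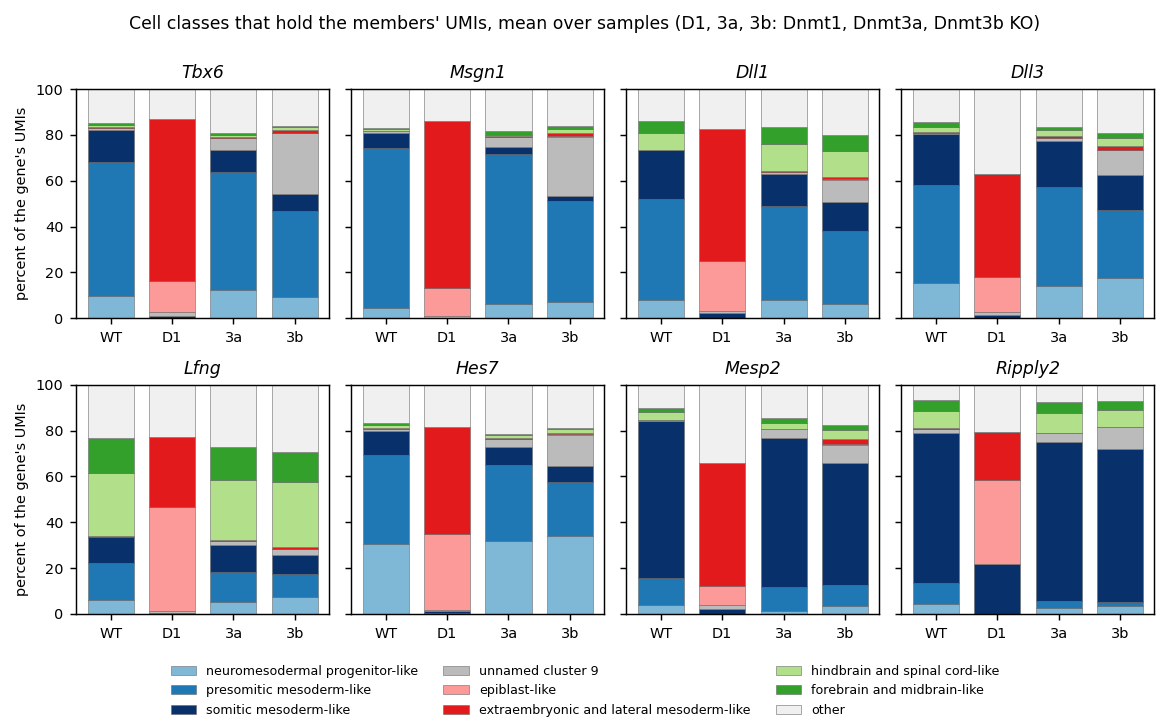
Stacked bars of the percentage of each gene's UMIs held by each cell class, as the mean over the samples of a group (WT; D1, 3a and 3b for the 3 KO groups; paraxial classes in blue, neural classes in green). In WT embryos the 3 paraxial classes hold from 73.3% (*Dll1*) to 84.2% (*Mesp2*) of the UMIs of 7 genes and 33.6% of those of *Lfng*, whereas in *Dnmt1* KO embryos extraembryonic and lateral mesoderm-like cells (red) and epiblast-like cells (pink) hold most UMIs of each gene on average, but not of *Ripply2* in *Dnmt1* KO 2, where 65.7% were in somitic mesoderm-like cells.

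Ordering the paraxial cells by caudal markers such as *T*, *Cdx2* and *Fgf8* against rostral markers such as *Meox1* and *Tcf15*, with none of the members used, put the highest mean levels of the genes in different bins. WT cells were cut into 5 bins of 733 or 734 cells, from bin 1 (84.4% NMP-like) through bin 3 (53.9% presomitic) to bin 5 (100% somitic), and values are means of the embryos. *Hes7* was highest at the progenitor end, with 175 CPM in bin 1, 115 in bin 2, 93.4 in bin 3, 69.1 in bin 4 and 9.09 in bin 5. This differs from the order of its class means, which were higher in presomitic than in NMP-like cells. Bins 1, 2 and 3 mix both classes, with 84.4%, 59.1% and 45.2% NMP-like cells. *Tbx6* was at 40.0 ± 9.01 CPM in bin 1, 53.5 ± 13 in bin 2 and 69.0 ± 23.0 in bin 3, its highest mean. *Msgn1* was at 2.93 ± 0.960, 5.57 ± 2.03 and 6.51 ± 3.57 CPM in the same bins, and bins 2 and 3 were not separable, since WT 1, 3 and 4 were higher in bin 2. *Dll1* and *Dll3* were at 73.9 and 93.3 CPM in bin 3 and at 72.9 and 92.2 CPM in bin 4. *Lfng* had its highest mean in bin 4, at 18.3 ± 7.87 CPM, against 14.7 ± 3.59 CPM in bin 3, and these values overlapped. *Mesp2* was at 0.841 ± 1.14 CPM in bin 3, at 15.1 ± 17.2 CPM in bin 4 (1.14 to 48.5, median 4.69) and at 5.96 ± 5.57 CPM in bin 5 (0 to 16.2, median 5.14). Without WT 1, the highest embryo, the means of *Mesp2* were 0.420 CPM in bin 3 and 9.57 CPM in bin 4, and bins 4 and 5 did not differ beyond the spread between embryos. *Ripply2* went from 1.18 ± 1.61 CPM in bin 3 to 19.1 ± 18.1 CPM in bin 4 (4.05 to 55.7, median 13.1) and 11.6 ± 16.1 CPM in bin 5 (1.71 to 47.7, median 5.59), where the values also overlapped. Without WT 3 its means were 0.607 CPM in bin 3 and 5.61 CPM in bin 5. Between 70 and 263 cells lay within 0.02 score units of each bin limit, so the bins are ranges of a continuous order rather than cell types.

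**Figure D3:**
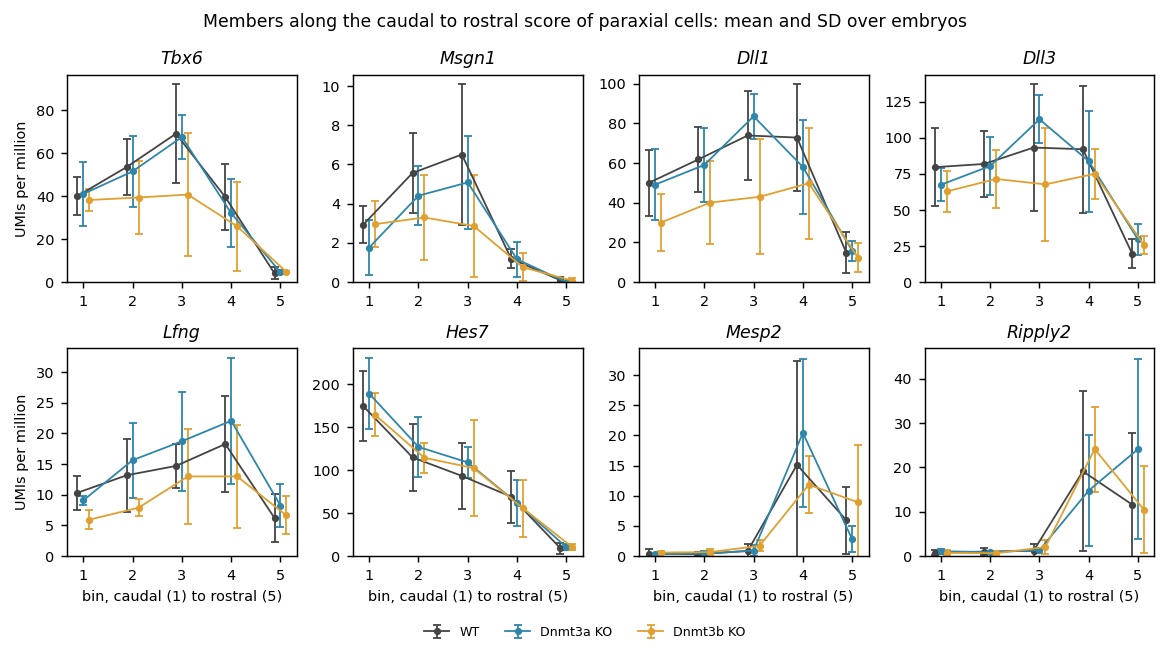
Level of each gene in CPM (y axis) in 5 bins of paraxial cells ordered from the caudal progenitor end (bin 1) to the rostral somite end (bin 5), with points at the mean and bars for the SD over WT, *Dnmt3a* KO and *Dnmt3b* KO embryos. In WT embryos *Hes7* falls from 175 to 9.09 CPM, *Tbx6* and *Msgn1* have their highest means in bin 3, close to bin 2 for *Msgn1*, and *Mesp2* and *Ripply2* have their highest means in bin 4, with SDs that overlap bin 5; *Dnmt1* KO embryos had 28 such cells in all and are not drawn.

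Within single presomitic cells detection was partial. After each cell was thinned to 5000 UMIs, which left out 40 shallower cells, 48.6% of 916 WT presomitic mesoderm-like cells had a *Hes7* UMI (95% exact binomial interval 45.3 to 51.9%, counting error only; 89.96% without thinning at a median of 39118 UMIs per cell). *Dll3* was detected in 43.1%, *Dll1* in 42.0%, *Tbx6* in 41.4%, *Lfng* in 10.2% and *Msgn1* in 5.46% of these cells. Erythroid-like cells, which should lack these genes, gave 0% to 0.420% for the 8 genes in 4051 thinned cells. The median of this class before thinning, shallower cells included, was 31528 UMIs. In presomitic cells *Mesp2* and *Ripply2* were each at 0.218%, inside that range. The range covers all 8 genes and is not the background of each gene on its own. In somitic mesoderm-like cells *Mesp2* and *Ripply2* were detected in 4.20% and 4.04% of 1287 thinned cells, above the erythroid range.

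Over 39 clusters of WT cells, the pattern of *Tbx6* was most like those of *Dll3* (Pearson r = 0.924), *3110004A20Rik* (0.902) and *Hes7* (0.896), while *Lfng* was at r = 0.494 with *Tbx6* and most like *Foxb1* and *Nrxn2* (both 0.898). *Dll1* was most like *Dll3* (0.889). *Mesp2* was most like *Meox2* (0.909) and *Dmrt2* (0.906), both of which mark the somite, and *Ripply2* most like *Mesp2* (0.807). *Msgn1* was most like *Sv2b* (0.907). These r values describe clusters that share the same 7 libraries and their depth, and clusters are not replicates.

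In *Dnmt1* KO embryos, 5 of the 8 genes were called lower than in WT embryos, by 2.65-fold to 5.04-fold over all cells of an embryo: *Hes7*, *Lfng*, *Dll1*, *Dll3* and *Tbx6*. The limits for a call were a Benjamini-Hochberg adjusted p of 0.01 and a 2-fold change, in edgeR's quasi-likelihood test over 18762 genes, of which 14.1% were called, 6.02% as lower and 8.11% as higher. The median log2 fold change was -1.69 over the members and 0.015 over all genes tested. All 3 *Dnmt1* KO embryos lay under all 7 WT embryos for 6 members, these 5 and *Ripply2*, and the same was so for 16.4% of all genes. In such sums over an embryo, fewer cells of a type and less RNA per cell cannot be told apart.

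The ligands were both lower. *Dll1* was at 7.56 CPM in the lowest, 9.39 CPM in the median and 14.8 CPM in the highest WT embryo, and at 2.77, 2.003 and 3.80 CPM in *Dnmt1* KO 1, 2 and 3. *Dll3* was at 9.08, 10.5 and 18.4 CPM in the lowest, median and highest WT embryo and at 3.13, 3.16 and 4.76 CPM in the 3 *Dnmt1* KO embryos. For both ligands every KO value was well under the lowest WT value, and *Dnmt1* KO 3 was the highest of the KO embryos. *Dll1* fell 3.36-fold (log2 -1.75, SE 0.29, adjusted p = 0.00015, edgeR) and *Dll3* fell 3.09-fold (log2 -1.63, SE 0.26, adjusted p = 0.00012).

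*Lfng* and *Hes7*, both periodic targets of the clock in presomitic mesoderm, had the largest fold changes of the 8. In WT embryos most *Lfng* UMIs lay outside the paraxial classes, so its sum over an embryo is not a measure of the clock. *Hes7* was at 11.4, 13 and 22.7 CPM in the lowest, median and highest WT embryo and at 2.92, 2.34 and 3.18 CPM in *Dnmt1* KO 1, 2 and 3. *Lfng* was at 3.72, 5.28 and 6.47 CPM in the same WT order and at 0.977, 0.744 and 1.51 CPM in the KO embryos. The groups did not overlap for either gene, and the 3 KO values of *Hes7* lay close together. *Hes7* fell 5.04-fold (log2 -2.33, SE 0.21, adjusted p = 4.5e-07, edgeR) and *Lfng* fell 4.51-fold (log2 -2.17, SE 0.25, adjusted p = 4.8e-06).

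Of the presomitic transcription factors, *Tbx6* was called and *Msgn1* was not. *Tbx6* was at 4.42, 6.38 and 9.19 CPM in the lowest, median and highest WT embryo and at 2.10, 1.44 and 3.58 CPM in *Dnmt1* KO 1, 2 and 3. *Tbx6* fell 2.65-fold (log2 -1.41, SE 0.29, adjusted p = 0.0010, edgeR), with all KO values under all WT values, and this call did not hold under every setting: without *Dnmt1* KO 2 it was -1.15 (adjusted p = 0.011), and with Y-linked expression as a covariate -1.31 (adjusted p = 0.027). *Msgn1* was at 0.297, 0.497 and 0.639 CPM in the lowest, median and highest WT embryo and at 0.488, 0.326 and 0.715 CPM in the KO embryos, from 43 to 57 UMIs per KO embryo and 23 to 133 per WT embryo. The groups overlapped fully, with the highest value in a KO embryo, and the log2 fold change was 0.08 (SE 0.25, adjusted p = 0.84, edgeR; 95% interval -0.46 to 0.61), an interval that leaves out the fold changes of the 5 genes called.

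The boundary genes were not called. *Ripply2* was at 0.619, 0.919 and 2.29 CPM in the lowest, median and highest WT embryo and at 0.105, 0.531 and 0.151 CPM in *Dnmt1* KO 1, 2 and 3. All KO values lay under the WT values, with *Dnmt1* KO 2 the nearest to them, and the log2 fold change was -1.97 (SE 0.63, adjusted p = 0.021, edgeR). Without *Dnmt1* KO 2 it was -3.09 (adjusted p = 0.0087, edgeR) and passed the threshold. *Ripply2* also passed with DESeq2 (-1.98, adjusted p = 0.0055), with replicate numbers as a block (-2.61) and with counts thinned to the smallest sample (-2.61). *Mesp2* was at 0.146, 0.614 and 1.26 CPM in the WT and 0.172, 0.349 and 0.477 CPM in the KO embryos, which overlapped (log2 -0.98, SE 0.54, adjusted p = 0.17).

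**Figure D4:**
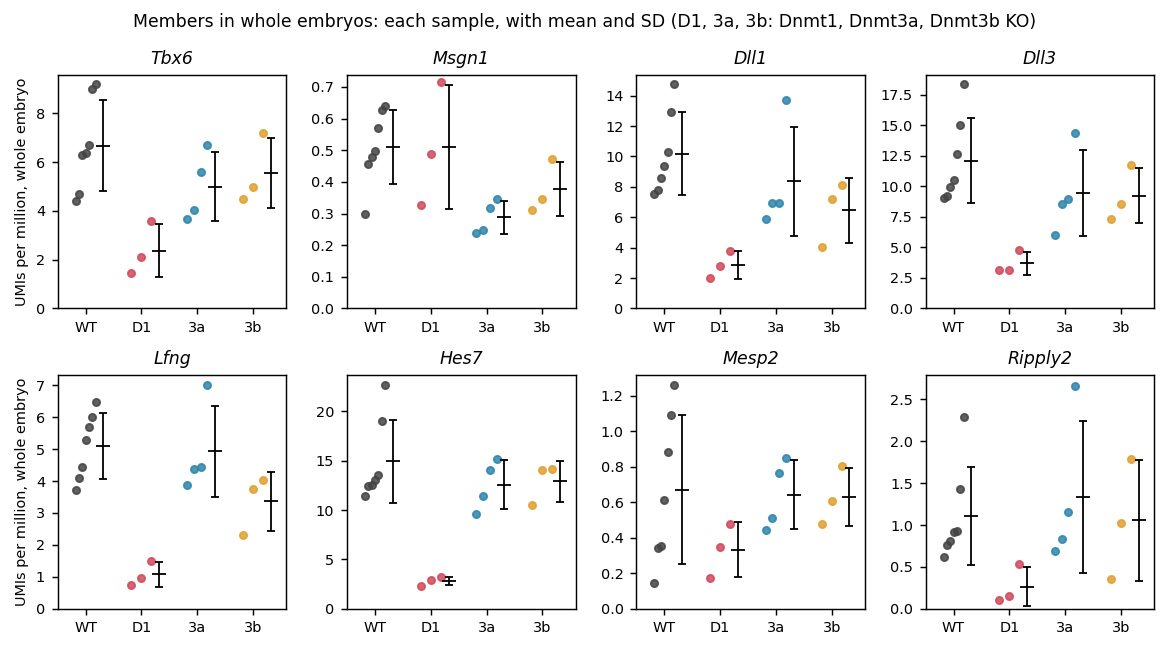
Level of each gene in CPM over all kept cells of an embryo (linear y axis from 0), with 1 point per sample and black bars for the mean and SD, for WT (n = 7) and for *Dnmt1* KO (D1, n = 3), *Dnmt3a* KO (3a, n = 4) and *Dnmt3b* KO (3b, n = 3). All 3 *Dnmt1* KO points lie under the 7 WT points for *Tbx6*, *Hes7*, *Lfng*, *Dll1*, *Dll3* and *Ripply2*, and the *Msgn1* points overlap.

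Summed markers of cell types also differed in *Dnmt1* KO embryos, with some sets lower and others higher than in WT embryos. These are sums of RNA over an embryo and do not count cells. Summed erythroid markers (9 of 9 detected in every sample) were at 1226 CPM (1097 to 1315) in *Dnmt1* KO and 14284 CPM (3043 to 37107) in WT embryos, and epiblast markers (7 of 7 detected) at 148 (123 to 176) and 42.4 CPM (19.3 to 75.2). Markers of neural cells, which held much of the *Lfng* UMIs in WT embryos, were lower, as were the NMP and somitic markers given below. Whether any of these sets is linked to the level of *Lfng* was not tested. Hindbrain and spinal cord markers (10 of 10 detected) were at 66.9 CPM (48.8 to 92.7) in *Dnmt1* KO and 165 CPM (125 to 210) in WT embryos, and forebrain and midbrain markers (10 of 10 detected) at 29.0 (14.8 to 48.5) and 78.4 CPM (43.9 to 123), the latter with overlap. Neural crest markers (7, at most 1 of them at 0 in a sample) were at 18.5 (15.0 to 20.8) and 39.8 CPM (33.9 to 44.7), and cardiomyocyte markers (10 of 10 detected) at 311 (128 to 409) and 994 CPM (738 to 1420). Gut endoderm markers were instead higher, at 329 (259 to 399) in *Dnmt1* KO and 188 CPM (152 to 222) in WT embryos. *Epcam* is in both this list and the surface ectoderm list, and the cells of these classes were not compared. The paper, which adds embryos edited by CRISPR, reports gut cells as relatively underrepresented in *Dnmt1* KO embryos. Surface ectoderm markers were at 300 (234 to 379) and 176 CPM (128 to 202), and extraembryonic ectoderm markers at 74.1 (35.7 to 149) and 15.6 CPM (13.6 to 18.8), also without overlap. The extraembryonic and blood classes meant here are extraembryonic endoderm, extraembryonic ectoderm and blood-cell classes such as erythroid-like cells. Extraembryonic and lateral mesoderm-like cells and allantois-like cells are not among them and were kept. Without the extraembryonic and blood classes, 4 of the 8 genes were called lower (background 12.9% called, 5.16% lower): *Hes7* at log2 -1.73, *Lfng* at -1.64, *Dll3* at -1.40 and *Dll1* at -1.15 (SE 0.19 to 0.23, edgeR). *Tbx6* was then at -0.86 (adjusted p = 0.0037, under the 2-fold limit) and *Msgn1* at 0.61 (adjusted p = 0.025). With these classes left out, no member was called in *Dnmt3a* KO (0.322% of genes called; lowest adjusted p = 0.023, *Msgn1*, log2 -0.92) or *Dnmt3b* KO embryos (2.31%; lowest adjusted p = 0.025, *Lfng*, log2 -0.66), with 2 and 3 members under an unadjusted p of 0.05, against 14.7% and 26.4% of all genes. What part the rest of the make-up had in these values was not tested.

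Almost no *Dnmt1* KO cells were assigned to the presomitic mesoderm-like class. *Dnmt1* KO 1 had 0 of 1464 cells in this class, which allows a share of up to 0.205% when 3 cells are taken as the limit of a count of 0, *Dnmt1* KO 2 had 0 of 3054, which allows up to 0.0982% on the same basis, and *Dnmt1* KO 3 had 1 of 2552. In WT embryos the share was 3.06% ± 1.12 (1.18 to 4.22%, n = 7). The 3 paraxial classes together held 7, 14 and 7 *Dnmt1* KO cells, or 0.404% ± 0.112 of cells, against 11.4% ± 3.27 in WT embryos with a lowest value of 5.41%. The exact two-sided permutation p was 0.0167 for each class, the smallest that 7 against 3 embryos allow, and 0.05 after adjustment over the 12 shares compared. These shares count cells that fell into clusters made mainly of WT, *Dnmt3a* KO and *Dnmt3b* KO cells, and 4 clusters were over 90% *Dnmt1* KO. Summed presomitic markers, given in full below, were not lower in *Dnmt1* KO embryos (537 against 451 CPM in WT embryos, with overlap). The NMP markers (123 against 324 CPM) and the somitic markers (65.0 against 221 CPM) were lower, without overlap. Such sums cover all cells of an embryo and do not show which cells carried the markers.

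The remaining UMIs of the members in *Dnmt1* KO embryos came mostly from 2 other classes. Extraembryonic and lateral mesoderm-like cells, 17.2% of the *Dnmt1* KO cells, held 70.9% of *Tbx6*, 73.1% of *Msgn1*, 57.8% of *Dll1* and 53.5% of *Mesp2* UMIs. *Hes7* UMIs were 46.7% in that class and 33% in epiblast-like cells, which were 12.8% of cells, and *Lfng* UMIs 30.6% and 45.4%. *Dll3* UMIs were 45.0% and 15.4% in the same classes and *Ripply2* UMIs 20.7% and 36.5%, and a further 21.9% of *Ripply2* UMIs were in somitic mesoderm-like cells, on average. All of these were in *Dnmt1* KO 2, where that class held 46 of the 70 *Ripply2* UMIs (65.7%). The class had 8 cells in this embryo, with or without a *Ripply2* UMI. *Dnmt1* KO 1 and 3 had 11 and 12 *Ripply2* UMIs and none in that class. Cardiomyocyte-like cells, 6.18% of *Dnmt1* KO cells, held 5.61% (*Lfng*) to 12.8% (*Ripply2*) of the members' UMIs. In WT embryos the extraembryonic and lateral mesoderm-like class held 0.218% of *Tbx6* UMIs, from other clusters.

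The cluster that carried most of them, of 1138 *Dnmt1* KO cells and 97.3% *Dnmt1* KO, had *Tbx6* at 8.39 ± 0.650 CPM (SD, n = 3), *Msgn1* at 1.90 ± 0.277 CPM, *Hes7* at 6.91 CPM, *Dll1* at 8.54 CPM and *Dll3* at 8.51 CPM. An epiblast-like cluster of 847 *Dnmt1* KO cells (95.6% *Dnmt1* KO) had *Hes7* at 7.16 ± 3.53 CPM, *Lfng* at 3.36 CPM, *Dll1* at 4.22 CPM and *Tbx6* at 2.14 CPM. The class name of the first cluster depends on the clustering: its marker score was 1.38 against a minimum of 1, and at Leiden resolution 1 a cluster led by the same gene, *Tdo2*, and 96.0% *Dnmt1* KO scored 0.889 for this class and stayed unnamed. The values in both clusters were far under those of WT presomitic cells, where *Tbx6* was at 103 CPM and *Hes7* at 159 CPM. Summed presomitic markers that were fixed without the members (8 of 8 detected in every sample) were at 537 CPM (356 to 649) in *Dnmt1* KO and 451 CPM (316 to 526.1) in WT embryos, so these ranges overlapped. The NMP markers (10 of 10 detected) were at 123 CPM (92.7 to 150) and 324 CPM (186 to 461), and the somitic markers at 65.0 CPM (44.1 to 97.4) and 221 CPM (151 to 289), with at most 1 of 10 at 0 in a sample.

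In cells with a UMI of *T*, the gene of the mesodermal T-box factor brachyury, 5 of the 8 members were detected in every *Dnmt1* KO embryo. This set was chosen after the values had been seen, with notochord-like cells left out and cells thinned to 5000 UMIs, and comprised 2.68% ± 0.54 of *Dnmt1* KO and 5.65% ± 1.58 of WT cells. *Hes7* was detected in 26.5%, 26.7% and 8.33% of these cells in the *Dnmt1* KO embryos and in 29.0% to 47.2% in WT embryos, so all 3 KO values were below the WT range. The cells compared are unlike: the 3 paraxial classes held 66.0% ± 2.40 of the WT cells of this set but 1 of 34, 0 of 60 and 0 of 48 cells in *Dnmt1* KO 1, 2 and 3, where 62 of the cells were epiblast-like and 45 extraembryonic and lateral mesoderm-like. *Dll3* was detected in 10.2% ± 2.76 and 22.6% ± 4.32, *Dll1* in 10.3% ± 4.24 and 18.4% ± 3.36, *Tbx6* in 9.20% ± 4.36 and 16.8% ± 4.34, and *Msgn1* in 3.34% ± 1.499 and 2.80% ± 1.19 of *Dnmt1* KO and WT cells (n = 3 and 7). *Lfng* was detected in 1.94% ± 2.10 (0 to 4.17%) of *Dnmt1* KO and 5.16% ± 2.49 (1.33 to 8.51%) of WT cells. *Mesp2* and *Ripply2* were detected in none of these cells in the 3 *Dnmt1* KO embryos, and in 0.251% ± 0.503 and 0.366% ± 0.437 in WT embryos, of which some were also at 0.

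In *Dnmt3a* KO embryos none of the 8 genes was called over the whole embryo (edgeR; background 0.219% called), and 1 of 8 was under an unadjusted p of 0.05, as were 9.57% of all genes. DESeq2 also called 0. The log2 fold changes ran from -0.83 for *Msgn1* to 0.18 for *Ripply2*, with a median of -0.29 against 0.00 over all genes. *Msgn1* was at 0.249, 0.316, 0.240 and 0.347 CPM in *Dnmt3a* KO 1, 2, 13 and 14, and at 0.297, 0.497 and 0.639 CPM in the lowest, median and highest WT embryo. 2 of the 4 KO values lay inside the WT range, at its lower end, and the difference did not pass after adjustment (SE 0.23, adjusted p = 0.17; 95% interval -1.32 to -0.33). No member had all 4 *Dnmt3a* KO embryos under all WT embryos, which was so for 0.181% of genes.

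*Hes7* was at 9.65, 14.1, 11.5 and 15.2 CPM in *Dnmt3a* KO 1, 2, 13 and 14, and *Tbx6* at 3.66, 5.601, 4.05 and 6.69 CPM. *Dll1* was at 5.88, 6.94, 6.93 and 13.7 CPM and *Dll3* at 6.03, 8.98, 8.53 and 14.4 CPM. *Dnmt3a* KO 14 was the highest of the 4 for all of these genes and for *Lfng* and *Ripply2*, and lay inside the WT range for *Hes7*, *Tbx6*, *Dll1* and *Dll3*. The other 3 *Dnmt3a* KO embryos lay under all 7 WT embryos for both ligands, so the overlap of the groups rests on *Dnmt3a* KO 14 there. The log2 fold changes were -0.31 for *Dll1* and -0.37 for *Dll3* with it, and -0.55 and -0.54 without it (adjusted p = 0.48 and 0.47, edgeR). *Lfng* (4.45, 3.87, 4.38 and 7.01 CPM), *Mesp2* (0.445, 0.847, 0.765 and 0.509 CPM) and *Ripply2* (0.831, 1.15, 0.687 and 2.66 CPM) overlapped the WT values.

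In *Dnmt3b* KO embryos no member was called either (edgeR; background 1.81% called), 2 of 8 were under an unadjusted p of 0.05, as were 18.0% of all genes, and DESeq2 called 0. All 8 log2 fold changes were under 0, from -0.66 for *Dll1* to -0.09 for *Ripply2*, with a median of -0.33 against -0.013 over all genes. *Dll1* was at 7.21, 8.14 and 4.06 CPM in the summed sample of libraries 1 and 2, in *Dnmt3b* KO 11 and in *Dnmt3b* KO 12, and *Lfng* at 4.03, 3.75 and 2.30 CPM. For both genes *Dnmt3b* KO 12 was the lowest and lay under all WT embryos; the summed sample was also just under the WT values for *Dll1*, and *Dnmt3b* KO 11 lay inside the WT range for both. The log2 fold changes were -0.66 (SE 0.27, adjusted p = 0.21, edgeR) for *Dll1* and -0.61 (SE 0.22, adjusted p = 0.16) for *Lfng*. Without *Dnmt3b* KO 12 they were -0.40 and -0.39, and without both *Dnmt3b* KO 11 and 12 they were -0.56 and -0.41 with n = 1. In that fit *Tbx6* was at -0.64, *Msgn1* at -0.77, *Hes7* at -0.15, *Dll3* at -0.56, *Ripply2* at -0.21 and *Mesp2* at 0.14, so *Mesp2* was no longer under 0.

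*Hes7* was at 14.2, 14.1 and 10.5 CPM in the same *Dnmt3b* KO order, *Tbx6* at 4.47, 7.18 and 4.98 CPM, and *Dll3* at 8.57, 11.7 and 7.35 CPM. *Msgn1* was at 0.311, 0.474 and 0.347 CPM, *Mesp2* at 0.801, 0.605 and 0.475 CPM and *Ripply2* at 1.03, 1.79 and 0.353 CPM. *Dnmt3b* KO 12 was the lowest for *Hes7*, *Dll3*, *Mesp2* and *Ripply2* as well, and no member had all *Dnmt3b* KO samples under all WT embryos (0.847% of genes did). Whether the *Dnmt1* KO effect differs from the *Dnmt3a* KO or *Dnmt3b* KO effect was not tested, and the 3 comparisons share the same 7 WT embryos.

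**Figure D5:**
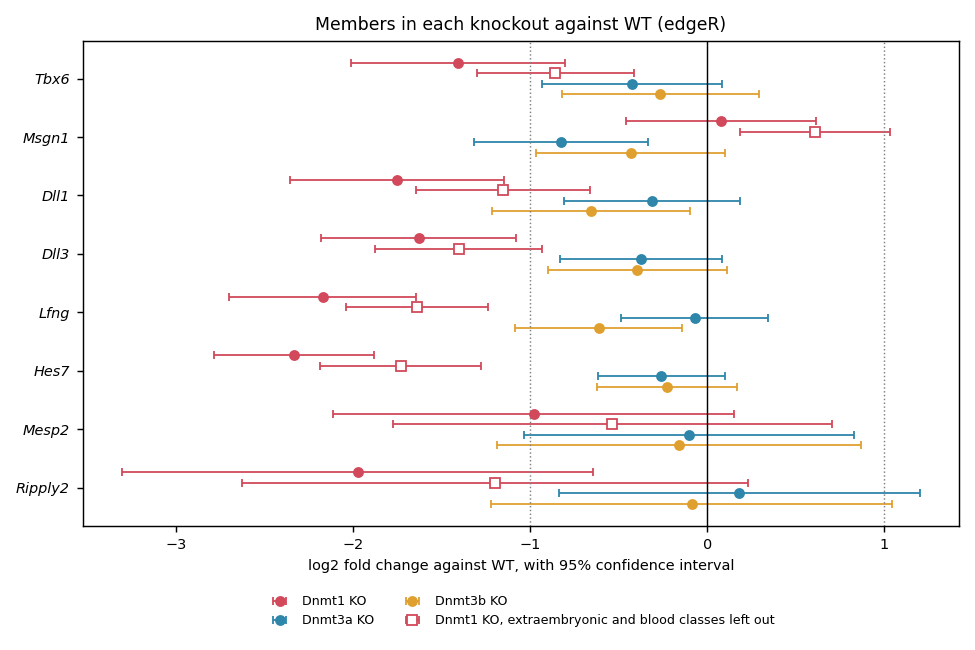
Log2 fold change of each gene against WT over the whole embryo, with its 95% interval from edgeR, for the 3 KO groups (filled circles) and for *Dnmt1* KO without the extraembryonic and blood classes (open squares). Extraembryonic and lateral mesoderm-like cells are kept in the latter, and dotted lines mark 2-fold. *Dnmt1* KO values run from -2.33 (*Hes7*) to 0.08 (*Msgn1*), and no *Dnmt3a* KO or *Dnmt3b* KO value was called.

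Within paraxial classes no member was called in *Dnmt3a* KO or *Dnmt3b* KO embryos; *Dnmt1* KO embryos had too few cells for this comparison. In presomitic mesoderm-like cells, edgeR called 0 of the 7 members tested in either KO group (background 0.0361% and 0.379% called), with 1 and 0 under an unadjusted p of 0.05 (8.61% and 10.8% of all genes). *Hes7* was at 82.7, 170 and 248 CPM in the lowest, median and highest WT embryo, at 141 to 210 CPM in *Dnmt3a* KO and at 142 to 216 CPM in *Dnmt3b* KO samples. *Tbx6* was at 56.6, 118 and 136 CPM in WT, 93.7 to 125 CPM in *Dnmt3a* KO and 109 to 129 CPM in *Dnmt3b* KO samples. Both KO ranges lay inside the WT range for these 2 genes and for *Dll1* (WT 71.4 to 153 CPM, *Dnmt3a* KO 129 to 152 CPM, *Dnmt3b* KO 114 to 138 CPM).

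*Dll3* was at 64.5 to 203 CPM in WT, 151 to 221 CPM in *Dnmt3a* KO and 149 to 164 CPM in *Dnmt3b* KO presomitic cells, *Lfng* at 14.9 to 32.2, 21.6 to 33.2 and 17.1 to 24.98 CPM, and *Msgn1* at 6.13 to 17.0, 6.25 to 10.8 and 5.81 to 9.45 CPM. The groups overlapped for all 3. *Mesp2* had the largest differences in this class, at 0.224, 1.26 and 2.61 CPM in the lowest, median and highest WT embryo, 0.300, 3.13, 7.08 and 2.12 CPM in *Dnmt3a* KO 1, 2, 13 and 14, and 2.08, 4.08 and 2.90 CPM in *Dnmt3b* KO 1 and 2, 11 and 12. These rest on 1 to 29 UMIs a sample, the groups overlapped, and the log2 fold changes of 1.28 (SE 0.56, adjusted p = 0.53, edgeR) and 1.27 (SE 0.63, adjusted p = 0.48) were not called. The *Dnmt3a* KO value of *Mesp2* changed sign under an alternative setting. *Dnmt3b* KO 12 contributed 25 presomitic mesoderm-like cells, the minimum for entry.

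In somitic mesoderm-like cells 0 of 7 members tested were called (background 0.129% in *Dnmt3a* KO and 0.555% in *Dnmt3b* KO; 1 and 0 under an unadjusted p of 0.05, against 8.66% and 13.6% of all genes), and in NMP-like cells 0 of 5 (0.0924% and 0.462%; 0 and 1, against 10.8% and 18.5%). The lowest adjusted p in NMP-like cells was that of *Dll1* in *Dnmt3b* KO embryos, at log2 -0.88 (SE 0.29, adjusted p = 0.14, edgeR; 95% interval -1.48 to -0.27). Over the 3 paraxial classes together none of the 8 was called (0.165% and 0.831%; 0 and 1, against 10.9% and 20.8%). DESeq2 called 0 in each of these comparisons. Without *Dnmt3b* KO 11 and 12 edgeR also called 0 (0.153% to 0.400% of all genes called), in a fit of n = 1 whose lone sample is assumed to vary like the other groups.

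Presomitic mesoderm-like cells made up 1.67% ± 0.596 of *Dnmt3a* KO cells (n = 4) and 1.59% ± 1.09 of *Dnmt3b* KO cells (n = 3), against 3.06% ± 1.12 in WT embryos. The log2 ratios of -0.85 and -1.18 did not pass the exact two-sided permutation test (p = 0.0788 and 0.15, adjusted 0.189 and 0.225). Without WT 2 the *Dnmt3a* KO ratio was -1.06 and passed (adjusted p = 0.0476, exact permutation test). WT 2 was the shallowest WT library, with a median of 6792.5 UMIs per cell, and *Dnmt3a* KO 2, with 4451.5, stayed in that comparison. Each had the lowest presomitic share of its group (1.18% and 0.873%). *Dnmt3b* KO 12 was the lowest, with 25 of 5914 cells (0.423%), against 2.59% in *Dnmt3b* KO 11 and 1.76% in the summed sample. The *Dnmt3b* KO log2 ratio was -0.41 without *Dnmt3b* KO 12 (adjusted p = 0.667, exact permutation test), -1.71 without *Dnmt3b* KO 11 (adjusted p = 0.19) and -0.69 without both, with n = 1. In that library an unnamed cluster of 468 cells held 63.4% of the *Tbx6*, 70.2% of the *Msgn1* and 32% of the *Hes7* UMIs, while presomitic mesoderm-like cells held 10.9% of the *Tbx6* UMIs. *Tbx6* was at 52.2 CPM in this cluster.

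Along the progenitor-to-somite order *Hes7* was highest in bin 1 and the mean of *Mesp2* was highest in bin 4 in *Dnmt3a* KO and *Dnmt3b* KO embryos, as in WT embryos. In *Dnmt3b* KO embryos *Mesp2* in bin 5 was at 8.90 ± 9.46 CPM, within the SDs of its bin 4 mean, so bins 4 and 5 are not ordered there. Most other members had means in neighbouring bins that differed by less than the SDs in 1 or both KO groups, so no order is read from them. In *Dnmt3b* KO embryos *Tbx6* was at 39.3 ± 17.2 CPM in bin 2 and 40.7 ± 28.7 CPM in bin 3, and *Lfng* at 12.99 ± 7.74 and 13 ± 8.38 CPM in bins 3 and 4. *Ripply2* was at 24.1 ± 20.3 CPM in bin 5 and 14.8 ± 12.5 CPM in bin 4 of *Dnmt3a* KO, and without *Dnmt3a* KO 2 these means were 14.5 and 18.4 CPM, the reverse order, while without *Dnmt3a* KO 14 bin 4 was at 8.77 CPM. *Msgn1* was at 3.30 ± 2.17 CPM in bin 2 and 2.86 ± 2.58 CPM in bin 3 of *Dnmt3b* KO embryos. *Dll3* was at 75.1 ± 17.4 CPM in bin 4 and 67.8 ± 39.2 CPM in bin 3 of the same embryos, but at 85.2 and 89.998 CPM without *Dnmt3b* KO 12. *Dll1* was at 49.8 ± 27.9 CPM in bin 4 and 43.0 ± 28.9 CPM in bin 3 of *Dnmt3b* KO embryos. *Mesp2* was at 20.4 ± 12.3 CPM in bin 4 of *Dnmt3a* KO and 11.8 ± 4.76 CPM in bin 4 of *Dnmt3b* KO embryos, and at 0.911 (0.506 without *Dnmt3a* KO 2) and 1.69 CPM in bin 3. In the summed sample of *Dnmt3b* KO 1 and 2 *Mesp2* was higher in bin 5, at 18.8 CPM, than in bin 4, at 14.3 CPM. Over the *Dnmt3b* KO samples it ranged from 6.35 to 14.9 CPM in bin 4 and from 0 to 18.8 CPM in bin 5. *Dll1* in bin 3 was at 69.5, 47.3 and 12.1 CPM in the summed sample, *Dnmt3b* KO 11 and *Dnmt3b* KO 12, and at 45.0 to 106 CPM in WT embryos. *Tbx6* in bin 3 was at 58.8, 55.7 and 7.63 CPM in the same order and at 32.3 to 93.3 CPM in WT embryos. For both genes only *Dnmt3b* KO 12 lay under the WT range, and the *Dnmt3b* KO means were 58.4 and 57.3 CPM without it. The order holds cells of the 3 paraxial classes only, so the unnamed cluster with 63.4% of the *Tbx6* and 25.3% of the *Dll1* UMIs of *Dnmt3b* KO 12 is not part of these values. In bin 1 *Dll1* was at 45.9, 18.8 and 25.4 CPM (WT 32.9 to 83.6) and *Lfng* at 7.52, 4.36 and 5.92 CPM (WT 6.09 to 13.2), with *Dnmt3b* KO 11 and 12 under the WT range and the summed sample inside it. *Tbx6* in bin 3 of *Dnmt3a* KO embryos was at 67.5 ± 10.3 CPM. These differences along the order were not tested.

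Of 52 other Notch pathway and segmentation genes, 12 were called in *Dnmt1* KO embryos over the whole embryo, 2 higher and 10 lower (edgeR; 14.1% of all genes called), with a median log2 fold change of -0.24. None of 3 other ligands, 8 receptor-cleavage genes or 6 inhibitors was called, and 1 of 4 receptors (*Notch4*, -1.10), 1 of 7 modification genes (*Mfng*, -1.14) and 1 of 6 nuclear genes (*Maml2*, -1.12) were called lower. Of 6 Notch targets 2 were called, the neural repressor *Hes5* (7.98 CPM in WT and 1.39 CPM in *Dnmt1* KO embryos, log2 -2.46) and *Hey2* (2.90 and 1.03 CPM, -1.43). Of 12 other segmentation genes 5 were lower, *Hes3* (17.3 and 3.41 CPM, -2.26), the FGF feedback genes *Dusp6* (27.4 and 8.76 CPM, -1.58), *Spry4* (-1.57) and *Spry2* (-1.56), and the Wnt inhibitor gene *Nkd1* (-1.02). *Mesp1*, the paralogue of *Mesp2* that acts in early mesoderm, was higher (2.62 and 10.2 CPM, 2.05), as was the Nodal and BMP antagonist gene *Cer1* (1.46). The groups overlapped for both genes. *Mesp1* was at 4.80 to 20.9 CPM (SD 9.30) in *Dnmt1* KO and 0.631 to 5.99 CPM in WT embryos. *Cer1* was at 1.51 to 4.44 CPM and 0.582 to 2.14 CPM in the same order. In *Dnmt3a* KO and *Dnmt3b* KO embryos 0 of the 52 were called by edgeR, where 0.219% and 1.81% of all genes were called. The medians were -0.06 and -0.20. Without *Dnmt3b* KO 11 and 12 also 0 were called in *Dnmt3b* KO (n = 1, median -0.053; 0.442% of all genes called). Without the extraembryonic and blood classes 12 of the 52 were called in *Dnmt1* KO embryos (12.9% of all genes), 3 higher and 9 lower, with a median of -0.18. *Notch4*, *Maml2* and *Nkd1* were then not called, while the Notch targets *Heyl* and *Nrarp* were lower, which made 4 of 6 targets, and *Dtx1*, an inhibitor and turnover gene of the list, was higher. *Notch4*, *Mfng*, *Maml2*, *Nkd1*, *Heyl*, *Nrarp* and *Dtx1* fall outside the rule for named genes and were named after their values were seen.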

How the data were processed

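The authors sequenced 3′ single-cell RNA-seq libraries (10x Genomics, v3 chemistry) of single dissociated E8.5 embryos and counted UMIs with Cell Ranger (matrix headers name version 3.1.0 in 17 libraries and 5.0.0 in 1) on mm10. The deposited values are raw counts of UMIs per gene and barcode, not normalized; the matrices of 4 libraries also list human genes, whose rows were left out. Groups were taken from the labels.

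Of 162336 barcodes, 128881 had at least 1500 mouse UMIs, and 117892 also had at most 30% mitochondrial and 35% ribosomal UMIs; Scrublet (scanpy 1.11.5) removed 7925 doublets. Clusters (2500 variable genes without the members and pathway genes, 50 components, 30 neighbours, Leiden resolution 2, leidenalg 0.10.2) were built on up to 1500 cells per library, and the other cells were assigned to them. Of 44 clusters 35 were named from markers in 19 classes, and 9 stayed unnamed (19.4% of WT and 13.6% of Dnmt1 KO cells). Counts were summed per sample, or per sample and class with at least 25 cells, and tested across all genes that passed edgeR's low-count filter in 1 fit over all groups (edgeR 4.0.16, quasi-likelihood, Benjamini-Hochberg; R 4.3.3). DESeq2 1.42.0 was an alternative. Shares were compared on log2 with 0.5 cells added. The fit was tested on simulated data.

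The members and the gene lists were chosen with earlier results of these data known. Named genes were the 8 members, up to 6 called pathway genes per KO and direction, and the 3 genes most like each member over clusters (Pearson r, log2(CPM + 1)), not all of which are reported here. Litters are not given in the labels used, so p-values measure the spread between embryos.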

Additional observations from a re-analysis of the deposited data

Results flagged for a closer look

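In 72 groups of 4 to 10 samples, 2 held a sample far from the others by Dixon's criterion, where chance alone gives about 1 in 20. *Dll1* over the whole embryo was at 13.7 CPM in *Dnmt3a* KO 14, with the nearest of the other 3 *Dnmt3a* KO embryos at 6.94 CPM. *Ripply2* in presomitic mesoderm-like cells was at 6.72 CPM in WT 5 (15 UMIs in 55 cells), with the nearest of the other 6 WT embryos at 2.61 CPM.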

How the results depend on the processing

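The number of members called was 5 in *Dnmt1* KO and 0 in the other comparisons under every replicate left out (without *Dnmt1* KO 2, *Ripply2* was among the 5 and *Tbx6* was not), and of 2286 alternative values of 78 member fold changes 9 changed their call. *Tbx6* in *Dnmt1* KO embryos lost its call with the Y-linked covariate (-1.31), without the extraembryonic and blood classes (-0.86, chosen after seeing the data), in the libraries numbered 1 to 3 without the block (-1.14), with the replicate block (-1.21) and without *Dnmt1* KO 2 (-1.15). *Ripply2* was called with DESeq2 (-1.98), the replicate block (-2.61), counts thinned to the smallest sample (-2.61) and without *Dnmt1* KO 2 (-3.09). The block turned *Dll3* in *Dnmt3a* KO presomitic cells from 0.32 to -0.38, and fold changes changed sign in 150 uncalled values. These fell on 49 of the 78 fold changes, the largest being that of *Mesp2* in *Dnmt3a* KO presomitic cells (1.28). Same-numbered embryos did not deviate together (correlations -0.34 to 0.40 over 13 pairs, own number best in 1 of 26 cases). Differently numbered pairs ran from -0.49 to 0.59. No pairing by number was seen, and so few pairs cannot exclude it. The block left 1441 *Dnmt1* KO calls over all genes, against 1742 in the same libraries without it.

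Leaving out 1 embryo moved the log2 share ratios of *Dnmt1* KO from -6.91 to -5.99 (presomitic), -5.20 to -4.08 (somitic), -4.32 to -3.91 (NMP-like) and -4.89 to -4.47 (together). For *Dnmt3a* KO they ran from -1.06 to -0.56 (presomitic), -0.71 to 0.047 (somitic) and -0.70 to -0.33 (together), and for *Dnmt3b* KO from -1.71 to -0.41 (presomitic), -0.96 to -0.18 (somitic), -0.56 to -0.16 (together) and -0.033 to 0.20 (NMP-like), the presomitic limits being those without *Dnmt3b* KO 11 and 12 in turn. Without both, the *Dnmt3b* KO ratios were -0.69, -0.31, -0.39 and -0.25 with n = 1. Without WT 2 the adjusted p was 0.0476 for all *Dnmt1* KO shares and for the *Dnmt3a* KO presomitic and joint shares. At Leiden resolution 1 the *Dnmt3b* KO NMP-like share was -0.38 against 0.11, and no separate presomitic class formed; with at least 50 cells per class *Dnmt3b* KO presomitic cells could not be tested. Calls over all genes moved from 2652 (*Dnmt1* KO), 41 (*Dnmt3a* KO) and 339 (*Dnmt3b* KO) to 1762, 26 and 192 with counts thinned to the smallest sample, and DESeq2 called 118 in *Dnmt3a* KO. Detection shares rose without thinning, and rare genes (*Msgn1*, *Mesp2*, *Ripply2*) rest on few UMIs.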

Other observations

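Outside the paraxial and neural classes, *Hes7* was at 45.5 ± 39.5 CPM (SD, n = 4 WT embryos with enough cells) in notochord and node-like cells and at 9.86 ± 2.77 CPM in gut endoderm-like cells, and *Lfng* at 13.5 CPM (n = 6) in neural crest-like cells. In notochord and node-like cells *Tbx6* was at 15.8 CPM and *Dll3* at 27.9 CPM.

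In 3457 WT paraxial cells thinned to 5000 UMIs, *Ripply2* was detected in 17.5% of the 57 cells with a *Mesp2* UMI and in 1.41% of those without, *Dll1* in 63.2% and 17.3%, and *Lfng* in 26.3% and 5.62%. *Hes7* was detected in 53.7% of the 557 cells with a *Tbx6* UMI and in 25.3% of those without. These shares pool cells of 7 embryos and of the 3 paraxial classes, and were not tested. The classes differ in detection: over WT embryos *Hes7* was on average in 47.8% of presomitic, 35.5% of NMP-like and 10.5% of somitic cells. *Tbx6* was in 42.0%, 6.17% and 7.89% in the same order. The shares therefore do not separate detection in the same cell from a mixture of classes.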
